A study of Mus musculus with 10 samples.

Results

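The 51 genes described here encode the enzymes and carriers that build, modify and burn fatty acids, together with Ppara, a nuclear receptor that activates genes of fatty acid oxidation. They form a list of gene symbols set by function, among the 21853 protein-coding genes measured, and the rule for membership is not a measured level or change. The list covers the supply of acetyl-CoA and malonyl-CoA, the fatty acid synthases, desaturation, elongation, activation to acyl-CoA, entry into mitochondria, beta-oxidation and the transfer of its electrons. Of the 51 genes, 49 reached at least 1 TPM in at least 2 of the 10 libraries and are among the 12060 genes that were tested. The 2 genes left out were Ppara, which was at most 0.119 TPM in any library, and Fads3, a member of the fatty acid desaturase family that reached 1 TPM in a single primed library (1.22 and 0.916 TPM). Cpt1b passed only through its primed libraries. TPM gives a gene's share of a library's transcripts after correction for transcript length, so that levels of different genes can be set side by side.

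RNA was sequenced from 5 lines of mouse embryonic stem cells (ESCs), with 2 libraries a line. Naïve ESCs were the wild-type J1 line, grown on gelatin with LIF, the MEK inhibitor PD0325901 and the GSK3 inhibitor CHIR99021. The study's methods give either a serum medium or a chemically defined N2B27 medium for them, and do not say which served for this RNA. GKO are J1 cells with a Cas9 indel in Gys1, which encodes glycogen synthase, AKO are J1 cells in which Prkaa1, a catalytic subunit of the kinase AMPK, was targeted with commercial CRISPR plasmids, and DKO carry both lesions. These 3 lines share the naïve medium. Primed ESCs (PJ1) were grown on Matrigel with serum replacement, bFgf and Activin, so that the pluripotent state, the medium and the substrate cannot be told apart in any comparison with them. GKO cells were isolated as single clones, but which clone stands behind each library, and whether the 2 libraries of a line came from separate cultures, is not given in the sources used here. The p-values therefore measure the spread between these libraries, which may be technical. In any comparison of GKO or DKO with another line, the lesions and differences between clones cannot be told apart. Fewer cells of a type and less RNA per cell cannot be told apart in such bulk samples.

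Cells make fatty acids from citrate that leaves the mitochondrion. ATP-citrate lyase turns it into acetyl-CoA, acetyl-CoA carboxylase adds a carbon to give malonyl-CoA, and fatty acid synthase joins these units into palmitate, which desaturases and elongases then modify. To be burned, a fatty acid is joined to CoA, passed to carnitine by carnitine palmitoyltransferase at the outer mitochondrial membrane, carried inside and shortened by repeated cycles of dehydrogenation, hydration, dehydrogenation and thiolysis. Malonyl-CoA blocks the entry step, and AMPK phosphorylates and inhibits acetyl-CoA carboxylase, so that active AMPK restrains synthesis and favours oxidation at the level of protein activity. The comparisons ask how the mRNAs of this machinery differ when glycogen synthase, AMPK or both are lost, and between the naïve and primed states.

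The mRNA of the targeted genes was examined first. Prkaa1 stood at 15.5 and 16.6 TPM in naïve ESCs, 7.24 and 6.94 in AKO, 12.2 and 11.96 in GKO, 2.30 and 2.04 in DKO and 13.4 and 13.7 in primed ESCs. It was lowest in DKO and next lowest in AKO, and GKO, where it was not targeted, lay below naïve ESCs too, with no overlap among these. Prkaa2, the other catalytic subunit, was at 2.71 and 2.44 TPM in AKO and 3.29 and 3.10 in DKO, so that both lines kept its mRNA. Gys1 stood at 11.5 and 10.8 TPM in the naïve libraries and 9.70 and 9.98 in GKO, and an indel need not lower the level of an mRNA, so this level does not check the lesion. The 8 naïve markers summed to 1251 to 1468 TPM in the 4 J1 lines grown as naïve cells and to 25.7 to 33.3 in primed ESCs, as the labels say. Among the J1 lines they summed to 1277 and 1251 TPM in naïve ESCs, 1281 and 1287 in AKO, 1432 and 1468 in GKO and 1400 and 1417 in DKO. The 6 primed markers summed to 51.3 and 51.6 TPM in naïve ESCs, 43.9 and 42.9 in AKO, 70.1 and 69.7 in GKO, 49.4 and 51.6 in DKO and 396 and 446 in primed ESCs. Such a sum does not give the direction of each marker. At a limma adjusted p under 0.05 against naïve ESCs, 1 of the 5 tested was higher and 1 lower in GKO. In DKO 1 was higher and 3 lower. Of all genes tested, 24.7% were higher and 27.1% lower in GKO, and 21.7% and 24.3% in DKO. The primed libraries stood apart from each other. The summed level of 4 mesendoderm markers was 20.1 and 2.84 TPM in primed libraries 1 and 2, both below the 22.3 to 38.0 TPM of the other lines. That of 5 endoderm markers was 6.83 and 0.634 TPM in primed libraries 1 and 2, against 0.663 to 1.73 in the other lines, with Afp listed at 0 in both primed libraries. The 7 fibroblast markers summed to 7.97 and 9.22 TPM in GKO and 3.46 and 2.88 in naïve ESCs, almost all of it Thy1, while Dcn and Lum were listed at 0 in GKO. In primed ESCs the fibroblast markers summed to 9.10 and 15.3 TPM. The 4 neural markers, mostly Tubb3, summed to 60.05 and 61.6 TPM in the naïve, 97.5 and 96.5 in the GKO and 119.5 and 114 in the primed libraries. Their part in the results was not tested, and each comparison with primed ESCs was also computed without either primed library. TPM keeps no trace of sequencing depth, so the depth behind these values is unknown.

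In naïve ESCs the synthesis enzymes were more abundant than the oxidation enzymes. The 22 genes of the synthesis side summed to 1307 and 1286 TPM and the 24 of the oxidation side to 547 and 541 TPM. Scd2, a stearoyl-CoA desaturase, was the highest member at 355 ± 4.6 TPM (SD, n = 2), followed by Tecr, the enoyl reductase of elongation, at 255 ± 15 and Fasn, fatty acid synthase, at 142 ± 2.3 TPM. On the oxidation side the beta subunit of the electron transfer flavoprotein, Etfb, was highest at 78.1 ± 0.84 TPM. The summed synthesis side was 1011 and 1044 TPM in the DKO, 1159 and 1197 in the GKO and 2152 and 1928 in the primed libraries. The oxidation side was 476 and 482 TPM in GKO and 616 and 620.5 in DKO, with no overlap between any of these pairs and the naïve libraries. All protein-coding genes summed to 578066 and 565209 TPM in the naïve and 517712 and 531306 in the GKO libraries. They summed to 531062 and 559117 TPM in the DKO and 512120 and 500162 in the primed libraries. The sums of each side were not scaled to these totals, so a fall of a side includes any fall of the total. Sums of a side follow the few most abundant members, and the members are described singly below.

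**Figure D1:**
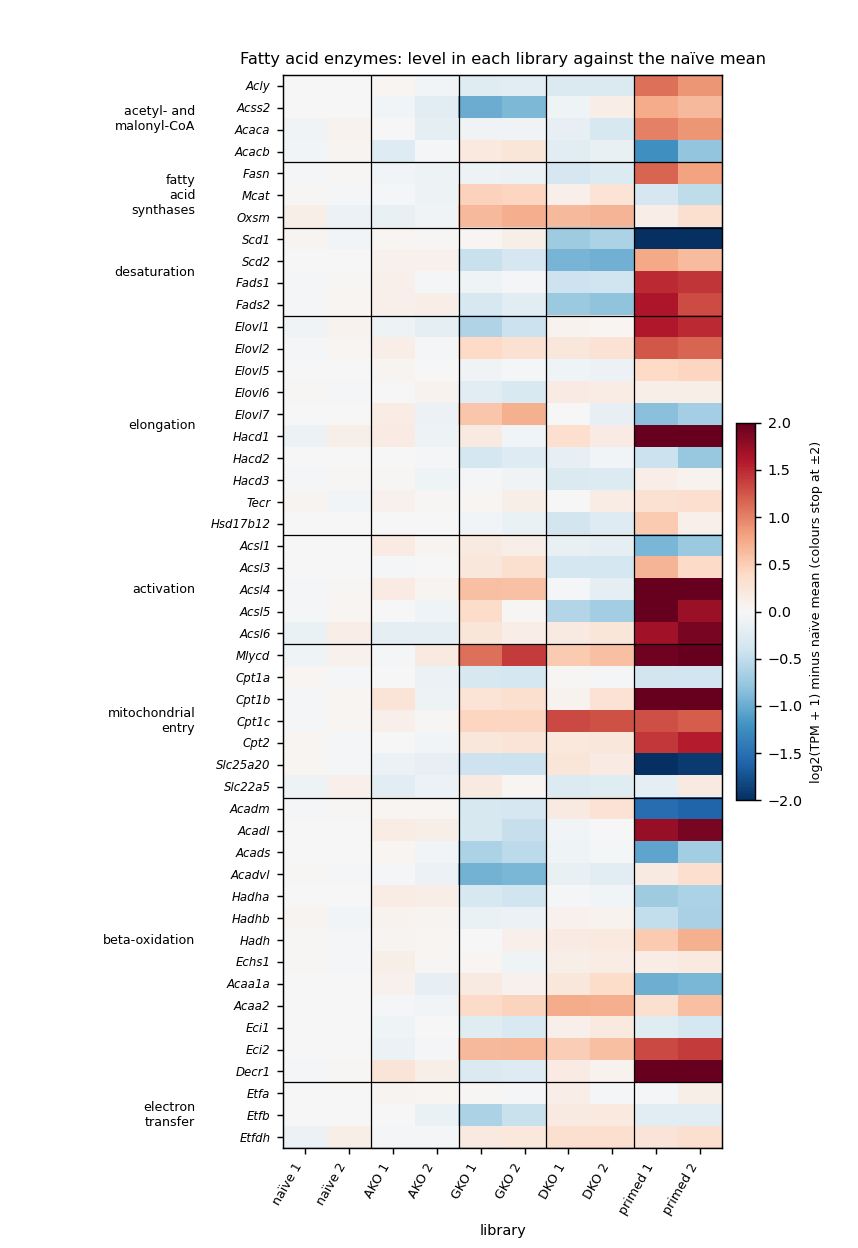
Each row is 1 of the 49 tested members, grouped by step, and each column is 1 library. Colour gives log2(TPM + 1) minus the mean of the 2 naïve libraries, red higher and blue lower, cut at 2 on either side. The AKO columns are nearly white, the GKO columns are blue in most of the beta-oxidation block, the DKO columns are blue in the desaturation block, and the primed columns hold the strongest colours of both kinds.

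Changes were tested with limma on log2(TPM + 1) over all 12060 genes, and a gene is said to be called, or to have risen or fallen, where its adjusted p was under 0.05. A change on this scale understates that of genes with low TPM. Where a called change is printed with its adjusted p but did not hold under every alternative processing other than a fold threshold, the highest adjusted p over the alternatives follows, with any library whose omission ended the call. All members whose calls did not hold are also named with the counts of each comparison. In AKO, where Prkaa1 alone was targeted, 0 of 49 members were called by limma, against 0.224% of all genes, 0.0663% higher and 0.158% lower. At an unadjusted p under 0.05, 2 members passed, Hadha at 0.14 ± 0.05 and Slc25a20 at -0.14 ± 0.05. No alternative processing called any member in AKO. Changes of the 49 members lay between -0.19 and 0.19. Among the key enzymes, Acly was at -0.0079, Acaca at -0.10, Acacb at -0.14, Fasn at -0.08, Scd1 at 0.03, Scd2 at 0.09 and Fads2 at 0.12, with SEs between 0.06 for Scd2 and 0.29 for Scd1. Elovl6 was at 0.03, Cpt1a at -0.05, Cpt2 at -0.03, Acadm at 0.04 and Hadha at 0.14. A change that misses the threshold does not show that the levels were equal.

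In GKO, 28 of the 49 members were called, 11 higher and 17 lower, and the share of all genes called was 51.7%, 24.7% higher and 27.1% lower. The deepest falls were those of Acss2 (-0.94), Acadvl (-0.93), Acads (-0.58), Etfb (-0.54) and Elovl1 (-0.51) on the log2 scale, and the largest rises those of Mlycd (1.25), Oxsm (0.69), Eci2 (0.66) and Elovl7 (0.64). In beta-oxidation 7 of 13 enzymes fell and 2 rose with a median log2 change of -0.27, beside -0.01 over all genes tested. Over the 8294 genes with a mean of at least 5 TPM the median was -0.06. Centring each chromosome on its own median turned the split of the members to 13 higher and 12 lower but left the counts in beta-oxidation at 2 and 7. Leaving out any one naïve or GKO library left 6 falls in beta-oxidation. Of the 28 calls, 18 held under every alternative other than a fold threshold, and those of Acly, Acsl3, Cpt1a, Cpt2, Decr1, Elovl2, Fads2, Hacd2, Oxsm and Scd2 did not.

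In DKO, 22 members were called, 12 higher and 10 lower, against 46.0% of all genes, 21.7% higher and 24.3% lower. The desaturases Scd2 (-0.95) and Fads2 (-0.77) fell most, and the transferase Cpt1c (1.299) and the thiolase Acaa2 (0.73) rose most on the log2 scale. On the synthesis side 8 of 21 members fell and 3 rose, and on the oxidation side 9 of 23 rose and 0 fell. The 8 falls of the synthesis side became 5 without DKO library 2 or naïve library 2 and with quantile normalization, and 6 with chromosomes centred, while the 3 rises became 1 without DKO library 2 or either naïve library. The split of the members was 15 higher and 8 lower with chromosomes centred or with median-ratio scaling and 14 and 7 with quantile normalization. The count of 22 was lower with any 1 naïve or DKO library left out, and so was the number of all genes called. The 9 rises of the oxidation side were also fewer in each of these fits, the fewest without naïve library 1. Of the 22 calls, 9 held under every alternative other than a fold threshold, and those of Acaa1a, Acaca, Acsl5, Cpt2, Elovl2, Elovl6, Etfdh, Fads1, Fasn, Hsd17b12, Mlycd, Oxsm and Slc25a20 did not.

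In primed ESCs, 45 members were called, 30 higher and 15 lower, against 80.0% of all genes, 37.4% higher and 42.5% lower. Without Cpt1b, which entered the test through these libraries, 44 of 48 were called and 29 were higher. Scd1 (-4.55), Slc25a20 (-1.96) and Acadm (-1.56) fell most, and Hacd1 (2.38), Acsl4 (2.30), Mlycd (2.16) and Decr1 (2.13) were among the strongest rises on the log2 scale. The synthesis side had 14 rises and 5 falls among 21 members, and the oxidation side 12 and 9 among 23. The rises of the oxidation side include Cpt1b, which passed the filter only through its primed libraries. The count was 44 without primed library 1 and 43 without primed library 2. The calls of Acadvl, Cpt1a, Echs1, Elovl6, Etfb, Etfdh and Hsd17b12 did not hold under every alternative other than a fold threshold.

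The lines that share a genotype at one gene were compared too. DKO and AKO differ in the Gys1 lesion, but their Prkaa1 mRNA differed too. It was lower in DKO, with a log2 change of -1.35 ± 0.07 (SE, limma adjusted p = 3.39e-06). The loss of Gys1, this difference and differences between clones cannot be told apart. In DKO against AKO 24 members were called, 14 higher and 10 lower, against 46.3% of all genes, 22.4% higher and 23.9% lower. The count fell to between 12 and 18 with one library left out, being 14 without AKO library 1 or 2 and 12 without DKO library 2, where 6 were higher and 6 lower. Of these calls, 10 held under every alternative other than a fold threshold, and those of Acaa1a, Acadm, Acly, Acsl1, Acsl3, Acsl5, Acsl6, Cpt2, Eci1, Elovl5, Etfb, Hadha, Mcat and Mlycd did not. DKO and GKO differ in the targeting of Prkaa1, which cannot be told apart from differences between clones either. In DKO against GKO 29 members were called, 16 higher and 13 lower, against 43.5% of all genes, 22.4% higher and 21.2% lower. Of the 23 oxidation-side members tested, 13 were higher in DKO than in GKO and 2 lower, among them 9 higher and 0 lower of the 13 beta-oxidation enzymes. Without GKO library 1 the 13 members lower in DKO became 8, and without GKO library 2 the 2 lower ones of the oxidation side became 0. Of the 29 calls, 20 held under every alternative other than a fold threshold, and those of Acaa2, Acacb, Acsl1, Decr1, Hacd3, Hadhb, Mcat, Mlycd and Slc22a5 did not.

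Of the 4 genes that supply acetyl-CoA and malonyl-CoA, Acly and Acaca had their highest mean mRNA level in primed ESCs and their lowest in DKO, where Acaca overlapped AKO. Acss2 was lowest in GKO and Acacb in primed ESCs. Acly, ATP-citrate lyase, stood at 119 and 119.9 TPM in naïve ESCs, 123 and 115 in AKO, 101 and 103 in GKO, 97.3 and 97.9 in DKO and 258 and 221 in primed ESCs. Both primed libraries were above and all 4 GKO and DKO libraries below the naïve and AKO range. The log2 change from naïve ESCs was 0.99 ± 0.07 (SE, limma adjusted p = 9.19e-07) in primed ESCs and -0.29 ± 0.07 (SE, limma adjusted p = 0.00746) in DKO. In GKO it was -0.22 ± 0.07 (SE, limma adjusted p = 0.0216, up to 0.117 over the alternatives, lost without any 1 library compared), or -0.15 (limma adjusted p = 0.0843) with chromosome 11, on which it lies, centred. Acss2, which makes acetyl-CoA from acetate, stood at 5.75 and 5.64 TPM in naïve ESCs, 5.42 and 4.75 in AKO, 2.37 and 2.61 in GKO, 5.33 and 6.30 in DKO and 10.2 and 9.49 in primed ESCs. GKO alone was low, at 43.7% of the naïve mean, and DKO overlapped the naïve libraries. Its log2 change was -0.94 ± 0.09 (SE, limma adjusted p = 6.51e-05) in GKO and 0.69 ± 0.09 (SE, limma adjusted p = 9.56e-05) in primed ESCs, and DKO was higher than GKO by 0.96 ± 0.09 (SE, limma adjusted p = 7.99e-05).

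The 2 acetyl-CoA carboxylases went opposite ways in primed ESCs. Acaca, the cytosolic form that feeds synthesis, stood at 21.8 and 24.2 TPM in naïve ESCs, 22.7 and 20.2 in AKO, 21.9 and 21.8 in GKO, 20.4 and 18.2 in DKO and 47.4 and 42.96 in primed ESCs. Primed ESCs were high and the other lines lay between 18.2 and 24.2 TPM. Acacb, the form at the mitochondrial membrane whose malonyl-CoA restrains fatty acid entry, stood at 5.20 and 5.64 TPM in naïve ESCs, 4.36 and 5.31 in AKO, 6.32 and 6.58 in GKO, 4.54 and 4.79 in DKO and 1.74 and 2.69 in primed ESCs. The primed libraries were below all others. The log2 change in primed ESCs was 0.94 ± 0.08 (SE, limma adjusted p = 5.75e-06) for Acaca and -1.01 ± 0.14 (SE, limma adjusted p = 1.01e-04) for Acacb, and Acaca made up 96.5% and 94.1% of the summed TPM of the pair in the primed libraries against 80.7% and 81.1% in the naïve ones. In DKO Acaca was at -0.24 ± 0.08 (SE, limma adjusted p = 0.044, up to 0.252 over the alternatives, lost without DKO library 2 or naïve library 2), which was -0.19 (limma adjusted p = 0.099) with its chromosome centred, and Acacb was at -0.18 ± 0.14 (SE, limma adjusted p = 0.314). In GKO neither was called, at -0.07 ± 0.08 (SE, limma adjusted p = 0.523) for Acaca and 0.22 ± 0.14 (SE, limma adjusted p = 0.216) for Acacb. Acacb was lower in DKO than in GKO, at -0.40 ± 0.14 (SE, limma adjusted p = 0.0435, up to 0.159 over the alternatives, lost without any 1 library compared).

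Fasn (chromosome 11, bases 120696672 to 120715995, minus strand, GRCm39), the enzyme that assembles palmitate, stood at 140.2 and 143 TPM in naïve ESCs, 136 and 132 in AKO, 132 and 131 in GKO, 112 and 117 in DKO and 318 and 248 in primed ESCs. Primed ESCs were above every other library, and DKO was below the other lines without overlap. The primed libraries differed from each other by more than the naïve ones. The log2 change was 0.98 ± 0.09 (SE, limma adjusted p = 9.94e-06) in primed ESCs, -0.31 ± 0.09 (SE, limma adjusted p = 0.0262, up to 0.117 over the alternatives, lost without any 1 library compared) in DKO and -0.11 ± 0.09 (SE, limma adjusted p = 0.357) in GKO. With chromosome 11 centred, on which the median of 967 genes in primed ESCs was 0.30, the primed change was 0.66 (limma adjusted p = 1.25e-04). The 2 enzymes of the separate mitochondrial fatty acid synthesis, Mcat and Oxsm, did not follow Fasn. Mcat stood at 17.4 and 16.6 TPM in the naïve libraries, 23.8 and 23.3 in the GKO and 13.3 and 11.6 in the primed ones, a rise of 0.45 ± 0.08 (SE, limma adjusted p = 0.00142) in GKO and a change of -0.42 ± 0.08 (SE, limma adjusted p = 8.34e-04) in primed ESCs. Oxsm rose in GKO and DKO, from 2.17 and 1.68 TPM in naïve ESCs to 3.58 and 3.83 in GKO and 3.59 and 3.68 in DKO. The log2 change was 0.69 ± 0.10 (SE, limma adjusted p = 5.58e-04, up to 0.129 over the alternatives) and 0.67 ± 0.10 (SE, limma adjusted p = 8.12e-04, up to 0.0501 over the alternatives), beside a median of 0.47 in GKO and 0.36 in DKO over the 394 genes tested on its chromosome 14. Centred on those medians, its change was 0.21 (limma adjusted p = 0.129) in GKO and 0.29 (limma adjusted p = 0.0501) in DKO, which no longer passed in either line.

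The promoter of Fasn is shown because this enzyme makes the product of the whole synthesis side and stood highest in primed ESCs and lowest in DKO. The 250 bases before its start, from RefSeq on GRCm38.p6 (chr11:120824548-120824797, minus strand), have their CCAAT boxes in capitals, of which 2 overlap in one run. CCAAT or its reverse ATTGG was searched on both strands, and occurred in 33.85% of the 32851 promoter windows of that length and in 23 of the 51 windows of the 44 members that matched the table. The GC box GGGCGG or CCGCCC occurred in 32.74% of all windows and 36 of the members' windows, and the E box CACGTG in 6.02% and 2. Such a match is a description of the letters and not of a bound site.
Fasn: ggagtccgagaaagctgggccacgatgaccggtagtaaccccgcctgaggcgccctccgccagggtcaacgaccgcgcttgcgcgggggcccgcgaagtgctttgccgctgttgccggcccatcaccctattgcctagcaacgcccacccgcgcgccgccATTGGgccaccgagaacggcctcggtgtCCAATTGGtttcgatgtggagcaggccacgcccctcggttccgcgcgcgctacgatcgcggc

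**Figure D2:**
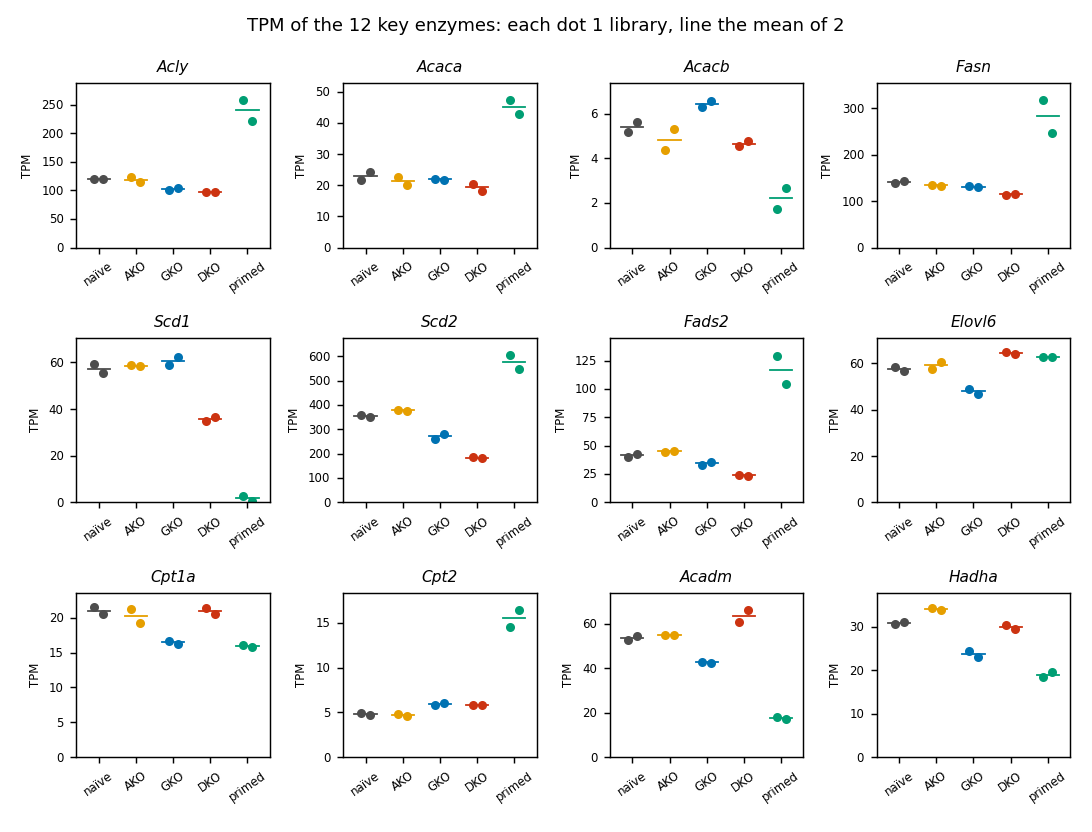
TPM (vertical axes, from 0) of the 12 key enzymes in the 5 lines, with 1 dot a library and a line at the mean of 2. Acly, Acaca, Fasn, Scd2, Fads2 and Cpt2 are highest in primed ESCs, Acacb, Scd1, Acadm and Hadha lowest there, and Scd2 and Fads2 are lowest in DKO.

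Of the 4 tested desaturases, 3 fell in DKO and 2 in GKO, and in primed ESCs 3 rose and Scd1 fell. The shares of all genes called lower were 24.3% and 27.1% in the knockouts, and the share called higher in primed ESCs was 37.4%. The 2 falls in GKO were fewer without any one naïve or GKO library. With chromosomes centred 0 fell and 1 rose. Scd1 and Scd2, neighbouring genes (chromosome 19, bases 44382894 to 44399154, and bases 44281613 to 44295303, GRCm39) for stearoyl-CoA desaturases that make monounsaturated fatty acids, had very different levels. Scd2 stood at 358 and 352 TPM in naïve ESCs, 378 and 376 in AKO, 262 and 281 in GKO, 185 and 182 in DKO and 604 and 549 in primed ESCs. The lines rose in the order DKO, GKO, naïve ESCs, AKO and primed ESCs, with no overlap between neighbours. On the log2 scale the change was -0.95 ± 0.06 (SE, limma adjusted p = 6.74e-06) in DKO, -0.39 ± 0.06 (SE, limma adjusted p = 5.07e-04, up to 0.598 over the alternatives) in GKO and 0.70 ± 0.06 (SE, limma adjusted p = 2.98e-06) in primed ESCs, and DKO was 51.7% of the naïve mean. Scd1 stood at 59.2 and 55.4 TPM in naïve ESCs, 58.9 and 58.2 in AKO, 59.1 and 62.2 in GKO, 34.7 and 36.6 in DKO and 2.77 and 0.632 in primed ESCs. It was almost lost in primed ESCs, where its log2 change was -4.55 ± 0.29 (SE, limma adjusted p = 6.52e-07). In DKO it was at 62.3% of the naïve mean with no overlap, but its change of -0.67 ± 0.29 (SE, limma adjusted p = 0.0944) did not pass in the fit of all lines, whose spread takes in the primed libraries. With the primed libraries left out of the fit the same change had a limma adjusted p of 1.87e-05. In GKO it was at 0.08 ± 0.29 (SE, limma adjusted p = 0.839). Scd1 took 14.2% and 13.6% of the summed TPM of the pair in the naïve libraries, 15.8% and 16.8% in DKO, 18.4% and 18.1% in GKO and 0.457% and 0.115% in the primed libraries.

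Fads1 and Fads2, the desaturases of polyunsaturated fatty acids, followed Scd2 in DKO and rose most in primed ESCs. Fads2 stood at 40.3 and 42.6 TPM in naïve ESCs, 44.6 and 45.4 in AKO, 33.1 and 35.7 in GKO, 24.4 and 23.4 in DKO and 129 and 104 in primed ESCs. DKO was the lowest line and primed ESCs the highest. This was a log2 change of -0.77 ± 0.09 (SE, limma adjusted p = 1.87e-04) in DKO, -0.26 ± 0.09 (SE, limma adjusted p = 0.0335, up to 0.174 over the alternatives, lost without any 1 library compared) in GKO and 1.46 ± 0.09 (SE, limma adjusted p = 4.24e-07) in primed ESCs. Fads1 stood at 34.1 and 35.03 TPM in naïve ESCs, 37.3 and 33.9 in AKO, 32.5 and 33.6 in GKO, 25.7 and 25.9 in DKO and 98.8 and 94.3 in primed ESCs. DKO was well below and primed ESCs well above the rest. Against naïve ESCs the log2 change was -0.41 ± 0.05 (SE, limma adjusted p = 3.95e-04, up to 0.0827 over the alternatives) in DKO and 1.46 ± 0.05 (SE, limma adjusted p = 1.82e-08) in primed ESCs, and DKO was lower than GKO, at -0.35 ± 0.05 (SE, limma adjusted p = 0.00107). All 3 of Scd2, Fads1 and Fads2 were also lower in DKO than in AKO, at -1.03 ± 0.06, -0.45 ± 0.05 and -0.89 ± 0.09, and these 3 falls were called with any one library left out.

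All desaturase genes, with Acsl5 and Cpt1a, lie on chromosome 19, and this chromosome was low as a whole in 3 lines. The median log2 change of its 394 tested genes was -0.40 in GKO, -0.27 in DKO, -0.45 in primed ESCs and -0.01 in AKO. The part of this shift in the members' changes is measured by centring the chromosome on its median. With the chromosome centred, the falls in GKO turned to 0.04 (limma adjusted p = 0.598) for Scd2, 0.16 (limma adjusted p = 0.159) for Fads2 and 0.09 (limma adjusted p = 0.248) for Cpt1a. Scd1, Fads1 and Acsl5, which were not called in GKO before centring, lay above the chromosome median there. In DKO the centred change stayed negative, at -0.67 (limma adjusted p = 3.33e-05) for Scd2, -0.49 (limma adjusted p = 0.00211) for Fads2, -0.13 (limma adjusted p = 0.0827) for Fads1 and -0.35 (limma adjusted p = 0.0622) for Acsl5, of which Fads1 and Acsl5 no longer passed. In primed ESCs the rises became larger, at 1.14 (limma adjusted p = 7.31e-08) for Scd2 and 1.91 (limma adjusted p = 5.62e-08) for Fads2, and the fall of Cpt1a turned to 0.07 (limma adjusted p = 0.317).

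**Figure D3:**
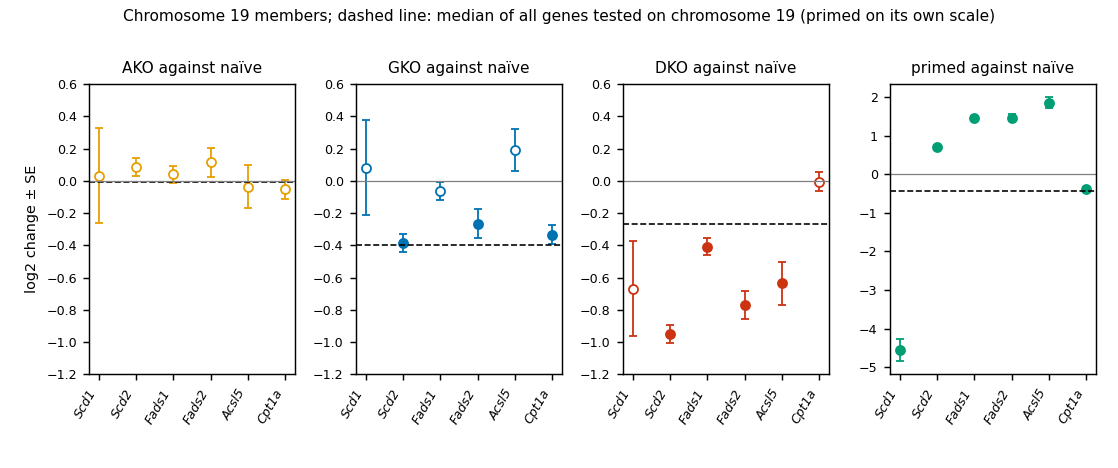
Log2 change from naïve ESCs (vertical axes, with SE) of the 6 tested members on chromosome 19 in AKO, GKO, DKO and primed ESCs, filled where called. The dashed line is the median of the 394 genes tested on that chromosome. In GKO the called members lie near that line and the others above it. In DKO Scd2, Fads2, Fads1 and Acsl5 lie below it. In primed ESCs 4 members lie far above it and Scd1 far below.

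Elongation had no common direction in the knockouts. Of its 10 genes, 2 rose and 3 fell in GKO, 2 rose and 2 fell in DKO, and 7 rose and 2 fell in primed ESCs, beside 51.7%, 46.0% and 80.0% of all genes called in either direction. With any one DKO or naïve library left out, the 2 rises in DKO became 0 and the 2 falls 1, and the 2 rises in GKO became 1 without GKO library 1 or naïve library 1. Elovl6, which extends palmitate to stearate, stood at 58.6 and 56.9 TPM in naïve ESCs, 57.4 and 60.8 in AKO, 49.01 and 46.7 in GKO, 64.8 and 63.8 in DKO and 62.8 and 62.9 in primed ESCs. GKO was below and DKO above the naïve libraries. Its log2 change was -0.27 ± 0.05 (SE, limma adjusted p = 0.00134) in GKO and 0.15 ± 0.05 (SE, limma adjusted p = 0.0231, up to 0.137 over the alternatives, lost without any 1 library compared) in DKO. In primed ESCs it was 0.12 ± 0.05 (SE, limma adjusted p = 0.036, up to 0.339 over the alternatives, lost without any 1 library compared), or 0.05 (limma adjusted p = 0.339) with its chromosome centred. Elovl1, an elongase of saturated very-long-chain acids, stood at 11.3 and 12.5 TPM in naïve ESCs, 10.99 and 10.4 in AKO, 7.53 and 8.58 in GKO, 12.6 and 12.2 in DKO and 38.1 and 35.3 in primed ESCs. GKO was lowest and primed ESCs were highest, with a log2 change of -0.51 ± 0.08 (SE, limma adjusted p = 6.22e-04) and 1.54 ± 0.08 (SE, limma adjusted p = 1.22e-07). Hacd1, a dehydratase of the elongation cycle known from muscle, stood at 5.998 and 7.24 TPM in the naïve libraries and 41.7 and 35.9 in primed ESCs, a rise of 2.38 ± 0.13 (SE, limma adjusted p = 2.49e-07), the largest of this step. Hacd2, a related dehydratase, was at -0.31 ± 0.10 (SE, limma adjusted p = 0.0271, up to 0.142 over the alternatives, lost without any 1 library compared) in GKO and -0.59 ± 0.10 (SE, limma adjusted p = 3.96e-04) in primed ESCs. Hacd3 was at -0.28 ± 0.05 (SE, limma adjusted p = 0.00233) in DKO. Hsd17b12, the ketoacyl reductase of the cycle, was at -0.32 ± 0.11 (SE, limma adjusted p = 0.0469, up to 0.206 over the alternatives, lost without any 1 library compared) in DKO. Elovl2 and Elovl7 were below 6 TPM throughout. Elovl2, which serves the longest polyunsaturated acids, was at 0.36 ± 0.09 (SE, limma adjusted p = 0.00746, up to 0.0977 over the alternatives, lost without GKO library 1 or naïve library 1) in GKO. It was at 0.25 ± 0.09 (SE, limma adjusted p = 0.039, up to 0.206 over the alternatives, lost without any 1 library compared) in DKO and 1.20 ± 0.09 (SE, limma adjusted p = 1.23e-06) in primed ESCs. Elovl7 rose in GKO (0.64 ± 0.11) and fell in primed ESCs (-0.76 ± 0.11). Elovl5, an elongase of polyunsaturated acids, and Tecr rose in primed ESCs by 0.41 and 0.32. Hsd17b12 was at 0.31 ± 0.11 (SE, limma adjusted p = 0.0314, up to 0.162 over the alternatives, lost without naïve library 1, naïve library 2 or primed library 1) there.

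The long-chain acyl-CoA synthetases, which join fatty acids to CoA for either fate, rose in primed ESCs except Acsl1. Acsl4, which prefers polyunsaturated acids, stood at 16.9 and 17.5 TPM in naïve ESCs, 19.3 and 17.96 in AKO, 26.6 and 26.3 in GKO, 16.9 and 15.1 in DKO and 79.6 and 98.5 in primed ESCs. Primed ESCs were high, and GKO was above the other naïve-type lines. The log2 change was 2.30 ± 0.10 (SE, limma adjusted p = 3.49e-08) in primed ESCs and 0.59 ± 0.10 (SE, limma adjusted p = 9.00e-04) in GKO. Acsl3, found on lipid droplets and the endoplasmic reticulum, stood at 35.5 and 35.7 TPM in naïve ESCs, 34.4 and 35.3 in AKO, 41.8 and 44.8 in GKO, 27.6 and 27.7 in DKO and 57.3 and 46.5 in primed ESCs. DKO was the lowest line and GKO was above naïve ESCs, a change of -0.35 ± 0.08 (SE, limma adjusted p = 0.00831) in DKO and 0.28 ± 0.08 (SE, limma adjusted p = 0.0234, up to 0.13 over the alternatives, lost without GKO library 2, naïve library 1 or naïve library 2) in GKO, opposite in direction. Acsl1 fell in primed ESCs from 15.5 and 15.3 to 7.70 and 8.85 TPM (-0.83 ± 0.07), and Acsl5 and Acsl6 rose from under 2 TPM by 1.86 ± 0.13 and 1.79 ± 0.11. Acsl4 took 50.01% and 58.9% of the family's summed TPM in the primed libraries against 24.1% and 24.6% in the naïve ones, where Acsl3 led with 50.6% and 50.1%. In DKO, Acsl3, Acsl4 and Acsl5 were lower than in GKO, at -0.63 ± 0.08, -0.69 ± 0.10 and -0.83 ± 0.13. Acsl1 was at -0.31 ± 0.07 (SE, limma adjusted p = 0.00731, up to 0.0535 over the alternatives, lost without GKO library 1) in the same comparison.

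The Cpt1 genes, which encode carnitine palmitoyltransferases, shifted in share. Cpt1a, the widely expressed enzyme of the outer membrane, stood at 21.6 and 20.5 TPM in naïve ESCs, 21.2 and 19.3 in AKO, 16.6 and 16.3 in GKO, 21.3 and 20.5 in DKO and 16.1 and 15.8 in primed ESCs. GKO and primed ESCs were below the others, and DKO overlapped naïve ESCs. On the log2 scale the change was -0.33 ± 0.06 (SE, limma adjusted p = 0.00144, up to 0.248 over the alternatives) in GKO and -0.38 ± 0.06 (SE, limma adjusted p = 2.57e-04, up to 0.317 over the alternatives) in primed ESCs. In DKO it was -0.0047 ± 0.06 (SE, limma adjusted p = 0.958), or 0.28 (limma adjusted p = 0.00592) with chromosome 19 centred. Cpt1c, a form best known from neurons that lies on the endoplasmic reticulum, stood at 5.42 and 5.71 TPM in naïve ESCs, 6.07 and 5.68 in AKO, 7.87 and 7.87 in GKO, 15.4 and 14.9 in DKO and 15.03 and 14.2 in primed ESCs. DKO and primed ESCs were high at similar levels, GKO lay between, and no group overlapped the naïve libraries except AKO. This was a log2 change of 1.299 ± 0.06 (SE, limma adjusted p = 2.49e-06) in DKO, 0.43 ± 0.06 (SE, limma adjusted p = 5.08e-04) in GKO and 1.25 ± 0.06 (SE, limma adjusted p = 1.27e-07) in primed ESCs, and DKO was above GKO by 0.86 ± 0.06 (SE, limma adjusted p = 2.04e-05). Cpt1b, the muscle form, was at most 0.664 TPM outside primed ESCs and 6.56 and 11.96 TPM in them. Of the summed TPM of the 3 genes, Cpt1c took 19.9% and 21.5% in the naïve, 31.4% and 31.7% in the GKO, 41.5% and 41.3% in the DKO and 39.9% and 33.9% in the primed libraries.

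The promoters of Cpt1a and Cpt1c are shown because the share of Cpt1c in the family shifted between the lines. Both are the 250 bases before the RefSeq start on GRCm38.p6, at chr19:3323051-3323300, plus strand for Cpt1a and chr7:44974852-44975101, minus strand for Cpt1c, with CCAAT boxes and GC boxes of either strand in capitals. Cpt1a has 2 GC boxes and 1 CCAAT box in this window, and Cpt1c has 1 of each.
Cpt1a: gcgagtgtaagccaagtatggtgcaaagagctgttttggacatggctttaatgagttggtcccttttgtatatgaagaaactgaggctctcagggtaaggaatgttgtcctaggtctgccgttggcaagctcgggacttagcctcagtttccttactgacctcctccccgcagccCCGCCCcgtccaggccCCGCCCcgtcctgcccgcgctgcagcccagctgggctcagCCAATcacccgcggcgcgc
Cpt1c: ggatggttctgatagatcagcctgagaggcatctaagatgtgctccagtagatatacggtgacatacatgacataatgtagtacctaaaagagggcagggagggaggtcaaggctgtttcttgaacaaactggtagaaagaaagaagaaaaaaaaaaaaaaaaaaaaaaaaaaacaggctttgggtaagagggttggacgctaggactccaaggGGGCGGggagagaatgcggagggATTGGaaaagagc

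The remaining genes of the entry step also changed. Slc25a20, the carrier that exchanges acylcarnitine for carnitine across the inner membrane, stood at 48.7 and 45.9 TPM in naïve ESCs, 43.7 and 42.1 in AKO, 35.1 and 34.8 in GKO, 55.8 and 53.3 in DKO and 10.97 and 11.9 in primed ESCs. GKO was below and DKO above the naïve libraries, and primed ESCs were lowest of all. Against naïve ESCs the log2 change was -0.42 ± 0.05 (SE, limma adjusted p = 2.49e-04) in GKO, 0.20 ± 0.05 (SE, limma adjusted p = 0.0145, up to 0.112 over the alternatives, lost without DKO library 1 or naïve library 2) in DKO and -1.96 ± 0.05 (SE, limma adjusted p = 2.90e-09) in primed ESCs. DKO was above GKO by 0.63 ± 0.05 (SE, limma adjusted p = 4.65e-05). Cpt2, which returns the acyl group to CoA inside, stood at 4.98 and 4.72 TPM in the naïve libraries, 5.82 and 6.03 in GKO, 5.79 and 5.85 in DKO and 14.6 and 16.4 in primed ESCs. It rose in all 3, by 0.24 ± 0.07 (SE, limma adjusted p = 0.0225, up to 0.122 over the alternatives, lost without any 1 library compared), 0.22 ± 0.07 (SE, limma adjusted p = 0.0362, up to 0.173 over the alternatives, lost without any 1 library compared) and 1.49 ± 0.07 (SE, limma adjusted p = 1.12e-07). Mlycd, malonyl-CoA decarboxylase, which removes the inhibitor of this step, stood at 0.411 and 0.602 TPM in naïve ESCs, 0.471 and 0.695 in AKO, 2.24 and 2.96 in GKO, 1.15 and 1.29 in DKO and 4.79 and 6.78 in primed ESCs. GKO was above DKO and both were above naïve ESCs, with a log2 change of 1.25 ± 0.16 (SE, limma adjusted p = 2.22e-04) in GKO and 0.56 ± 0.16 (SE, limma adjusted p = 0.0168, up to 0.105 over the alternatives, lost without DKO library 1, DKO library 2 or naïve library 1) in DKO. In primed ESCs the change was 2.16 ± 0.16 (SE, limma adjusted p = 1.40e-06). Slc22a5, the carnitine transporter of the cell membrane, was called in DKO against GKO alone, at -0.37 ± 0.12 (SE, limma adjusted p = 0.039, up to 0.195 over the alternatives, lost without any 1 library compared).

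In beta-oxidation, the acyl-CoA dehydrogenases that open each cycle fell in GKO, and none was called lower in DKO. Acadvl (chromosome 11, bases 69900853 to 69906270, minus strand, GRCm39), the very-long-chain acyl-CoA dehydrogenase, stood at 12.6 and 12.1 TPM in naïve ESCs, 12.03 and 11.3 in AKO, 5.95 and 6.12 in GKO, 11.1 and 10.6 in DKO and 14.1 and 15.9 in primed ESCs. GKO held about 48.8% of the naïve mean, well below every other library. Its log2 change was -0.93 ± 0.07 (SE, limma adjusted p = 1.70e-05) in GKO. DKO was above GKO by 0.75 ± 0.07 (SE, limma adjusted p = 6.77e-05). Primed ESCs were at 0.26 ± 0.07 (SE, limma adjusted p = 0.00747, up to 0.459 over the alternatives, lost without naïve library 2), which was -0.06 (limma adjusted p = 0.459) with chromosome 11 centred. Acadm, the medium-chain enzyme, stood at 52.99 and 54.5 TPM in naïve ESCs, 55.1 and 55.1 in AKO, 42.9 and 42.4 in GKO, 61.1 and 66.1 in DKO and 17.96 and 17.1 in primed ESCs. The lines ran from primed ESCs through GKO and naïve ESCs to DKO without overlap. The log2 change was -0.33 ± 0.05 (SE, limma adjusted p = 7.29e-04) in GKO, 0.24 ± 0.05 (SE, limma adjusted p = 0.00464) in DKO and -1.56 ± 0.05 (SE, limma adjusted p = 7.32e-09) in primed ESCs, and DKO was above GKO by 0.56 ± 0.05 (SE, limma adjusted p = 5.67e-05). Acads, the short-chain enzyme, stood at 34.5 and 34.9 TPM in naïve ESCs, 35.9 and 33.5 in AKO, 21.9 and 23.7 in GKO, 32.6 and 33.9 in DKO and 16.2 and 20.97 in primed ESCs. GKO and primed ESCs were low, with a log2 change of -0.58 ± 0.10 (SE, limma adjusted p = 0.00132) and -0.88 ± 0.10 (SE, limma adjusted p = 3.34e-05). Acadl, the long-chain enzyme, stood at 6.11 and 6.09 TPM in naïve ESCs, 6.91 and 6.70 in AKO, 4.66 and 4.19 in GKO, 5.82 and 6.17 in DKO and 22.7 and 25.4 in primed ESCs. It was at -0.39 ± 0.08 (SE, limma adjusted p = 0.00269) in GKO, and primed ESCs were far above the rest, at 1.81 ± 0.08 (SE, limma adjusted p = 3.99e-08). Acadl took 31.9% and 32.02% of the summed TPM of the 4 dehydrogenases in the primed libraries and 5.76% and 5.66% in the naïve ones, and Acadm 25.3% and 21.5% against 49.9% and 50.6%.

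**Figure D4:**
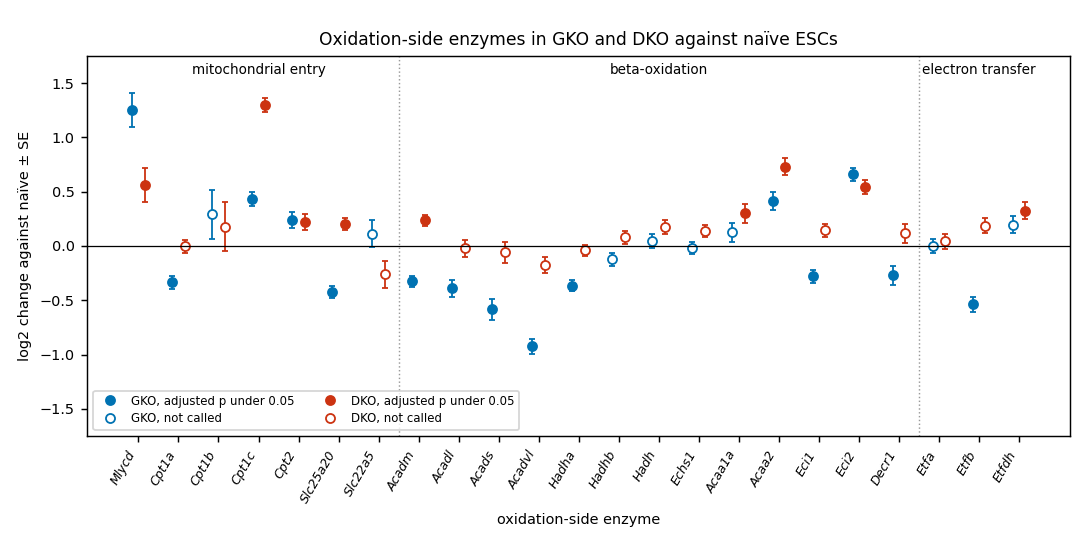
Log2 change from naïve ESCs with its SE (vertical axis) of the 23 tested oxidation-side enzymes in GKO (blue) and DKO (red), filled where called. In GKO 7 of 13 beta-oxidation enzymes, Slc25a20, Cpt1a and Etfb are called lower, and in DKO no enzyme is, while Cpt1c, Acaa2, Eci2 and Mlycd are called higher in both.

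Hadha and Hadhb, the 2 subunits of the trifunctional protein that carries the later steps for long chains, fell in primed ESCs and Hadha fell in GKO. Hadha stood at 30.7 and 31.1 TPM in naïve ESCs, 34.3 and 33.8 in AKO, 24.4 and 23.1 in GKO, 30.5 and 29.6 in DKO and 18.5 and 19.5 in primed ESCs. GKO and primed ESCs were below all other libraries. On the log2 scale the change was -0.37 ± 0.05 (SE, limma adjusted p = 3.44e-04) in GKO, -0.67 ± 0.05 (SE, limma adjusted p = 1.57e-06) in primed ESCs and -0.04 ± 0.05 (SE, limma adjusted p = 0.549) in DKO. DKO was above GKO by 0.33 ± 0.05. It was below AKO, at -0.18 ± 0.05 (SE, limma adjusted p = 0.0179, up to 0.0961 over the alternatives, lost without AKO library 1, AKO library 2 or DKO library 2). Hadhb changed by -0.57 ± 0.06 (SE, limma adjusted p = 1.61e-05) in primed ESCs and in DKO against GKO was at 0.20 ± 0.06 (SE, limma adjusted p = 0.0215, up to 0.0963 over the alternatives, lost without any 1 library compared). Hadh and Echs1, which serve short chains, did not pass in GKO or DKO and were at 0.62 ± 0.06 (SE, limma adjusted p = 1.80e-05) and 0.18 ± 0.06 (SE, limma adjusted p = 0.0175, up to 0.0898 over the alternatives, lost without naïve library 2 or primed library 2) in primed ESCs. Of the thiolases, Acaa2, the mitochondrial one, stood at 16.3 and 16.4 TPM in the naïve libraries, 21.6 and 22.7 in GKO, 27.9 and 27.7 in DKO and 20.7 and 25.2 in primed ESCs. It rose in each of these lines, most in DKO, by 0.41 ± 0.08 (SE, limma adjusted p = 0.00242), 0.73 ± 0.08 (SE, limma adjusted p = 1.40e-04) and 0.46 ± 0.08 (SE, limma adjusted p = 5.38e-04). Acaa1a, a peroxisomal thiolase with a near-identical copy Acaa1b between which reads could be split, was at 0.30 ± 0.09 (SE, limma adjusted p = 0.0208, up to 0.133 over the alternatives, lost without DKO library 2, naïve library 1 or naïve library 2) in DKO and -0.94 ± 0.09 (SE, limma adjusted p = 7.83e-06) in primed ESCs.

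The auxiliary enzymes, which handle double bonds, divided. Eci2 stood at 8.74 and 8.65 TPM in naïve ESCs, 7.93 and 8.55 in AKO, 14.2 and 14.4 in GKO, 12.6 and 13.6 in DKO and 23.2 and 24.5 in primed ESCs. GKO, DKO and primed ESCs were all above the naïve and AKO libraries, with a log2 change of 0.66 ± 0.06 (SE, limma adjusted p = 5.66e-05), 0.54 ± 0.06 (SE, limma adjusted p = 2.07e-04) and 1.36 ± 0.06 (SE, limma adjusted p = 7.66e-08). Eci1 fell in GKO (-0.28 ± 0.06) and primed ESCs (-0.30 ± 0.06) and was above GKO in DKO by 0.42 ± 0.06. Decr1, dienoyl-CoA reductase, stood at 1.52 and 1.62 TPM in the naïve libraries, 1.11 and 1.15 in the GKO and 10.9 and 9.58 in the primed ones. This was a log2 change of -0.27 ± 0.09 (SE, limma adjusted p = 0.03, up to 0.136 over the alternatives, lost without any 1 library compared) in GKO and 2.13 ± 0.09 (SE, limma adjusted p = 3.65e-08) in primed ESCs.

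The electron transfer flavoprotein passes the electrons of these dehydrogenases to the respiratory chain, and its genes did not move as one. Etfb, the beta subunit, stood at 78.7 and 77.5 TPM in naïve ESCs, 78.8 and 70.98 in AKO, 49.9 and 57.3 in GKO, 88.3 and 89.5 in DKO and 67.2 and 66.6 in primed ESCs. GKO was low, DKO high, and neither overlapped the naïve libraries. Against naïve ESCs the log2 change was -0.54 ± 0.07 (SE, limma adjusted p = 2.60e-04) in GKO and -0.22 ± 0.07 (SE, limma adjusted p = 0.0162, up to 0.787 over the alternatives, lost without naïve library 1 or naïve library 2) in primed ESCs. DKO was above GKO by 0.72 ± 0.07 (SE, limma adjusted p = 7.76e-05). In primed ESCs the direction of this small change was not stable, since it was 0.02 with quantile normalization. Etfa, the alpha subunit, stood at 39.9 and 39.5 TPM in naïve ESCs, 41.1 and 40.8 in AKO, 40.3 and 39.09 in GKO, 43.5 and 38.4 in DKO and 38.7 and 43.1 in primed ESCs. All libraries lay between 38.4 and 43.5 TPM, and it was called in no comparison. Etfdh, the dehydrogenase that takes the electrons onward, rose in DKO by 0.32 ± 0.08 (SE, limma adjusted p = 0.00893, up to 0.0671 over the alternatives, lost without naïve library 1) and in primed ESCs by 0.29 ± 0.08 (SE, limma adjusted p = 0.00709, up to 0.0624 over the alternatives, lost without naïve library 1).

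The effect of Gys1 loss in AMPK-intact cells (GKO minus naïve) was compared directly with that in AMPK-deficient cells (DKO minus AKO), and these differences share no library. AKO and DKO are called AMPK-deficient after their Prkaa1 lesion, although both kept Prkaa2 mRNA, and because Prkaa1 mRNA was lower in DKO than in AKO the second difference is not one of Gys1 alone. In either difference and in the interaction, the lesions and differences between clones cannot be told apart. The chromosome medians in GKO were 0.47 on chromosome 14 and -0.40 on chromosome 19, against -0.0093 and -0.0052 in AKO. The interaction is the first effect minus the second. The interaction was called for 21 of 49 members, 9 higher and 12 lower, against 25.8% of all genes, 12.8% higher and 13.1% lower. On the oxidation side it was called for 10 of 23, 9 of them negative, and for 5 of 13 beta-oxidation enzymes, all negative, which became 3 with chromosomes centred and 3 or 4 with one library left out, being 4 without GKO library 2 alone. On the synthesis side it was called for 7 of 21, among them 3 of the 4 tested desaturases, all positive, a smaller fall in AMPK-intact cells. Of the members called in either effect, 16 were called in both, 11 in the same direction and 5 in opposite directions, 12 were called in AMPK-intact cells alone and 8 in AMPK-deficient cells alone. Of all genes, 51.7% were called in the first effect and 46.3% in the second. Their overlap over all genes was not counted, so these counts are not read as a trait of the members. With one library left out, between 15 and 19 interactions were called. Those of Acaa2, Acads, Acsl1, Acsl5, Cpt1a and Mlycd did not hold under every alternative other than a fold threshold.

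The 5 members called in opposite directions were Slc25a20, Acadm, Etfb, Eci1 and Acsl3, and of these only Slc25a20 was called in both effects under every alternative other than a fold threshold. For Slc25a20 the effect was -0.42 in AMPK-intact and 0.34 in AMPK-deficient cells, a difference of -0.76 ± 0.08 (SE, limma adjusted p = 3.02e-04). For Acadm it was -0.33 in AMPK-intact and 0.20 ± 0.05 (SE, limma adjusted p = 0.0102, up to 0.0764 over the alternatives, lost without AKO library 1, AKO library 2 or DKO library 2) in AMPK-deficient cells, a difference of -0.53 ± 0.07 (SE, limma adjusted p = 0.00115). Etfb was at 0.25 ± 0.07 (SE, limma adjusted p = 0.0176, up to 0.134 over the alternatives, lost without AKO library 2, DKO library 1 or DKO library 2) in AMPK-deficient cells, and its difference was -0.78 ± 0.10 (SE, limma adjusted p = 8.26e-04). Eci1 was at 0.19 ± 0.06 (SE, limma adjusted p = 0.0324, up to 0.182 over the alternatives, lost without AKO library 1, AKO library 2 or DKO library 2) there, and its difference was -0.47 ± 0.09 (SE, limma adjusted p = 0.00514). Acsl3 went the other way, at 0.28 ± 0.08 (SE, limma adjusted p = 0.0234, up to 0.13 over the alternatives, lost without GKO library 2, naïve library 1 or naïve library 2) in AMPK-intact cells. In AMPK-deficient cells it was at -0.33 ± 0.08 (SE, limma adjusted p = 0.0123, up to 0.0677 over the alternatives, lost without AKO library 2, DKO library 1 or DKO library 2), a difference of 0.60 ± 0.12 (SE, limma adjusted p = 0.00718). Acadvl and Acss2 fell in AMPK-intact cells and were at -0.10 and 0.16 in AMPK-deficient cells, differences of -0.83 ± 0.10 (SE, limma adjusted p = 6.57e-04) and -1.10 ± 0.13 (SE, limma adjusted p = 6.37e-04). Cpt1c and Scd2 changed in the same direction in both and more in AMPK-deficient cells, with differences of -0.80 ± 0.09 (SE, limma adjusted p = 5.02e-04) and 0.65 ± 0.08 (SE, limma adjusted p = 7.54e-04).

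**Figure D5:**
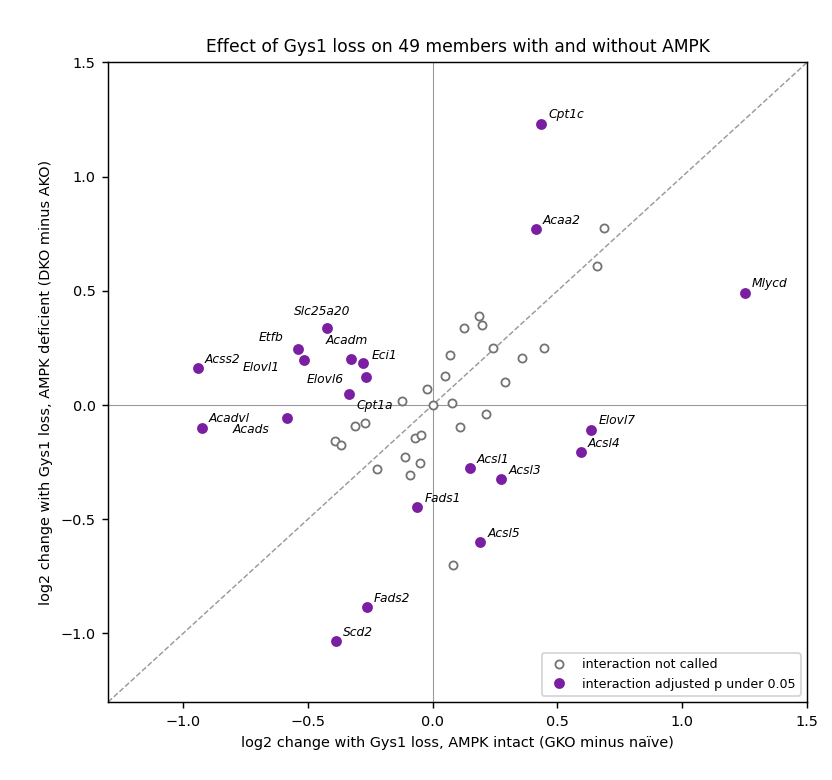
Each dot is 1 of the 49 tested members, with the log2 change on Gys1 loss in AMPK-intact cells on the horizontal axis and in AMPK-deficient cells on the vertical axis. Filled dots are the 21 members whose interaction was called, and the dashed line marks equal effects. Slc25a20, Acadm, Etfb and Eci1 sit left of zero and above it, and Acsl1, Acsl3, Acsl4 and Acsl5 sit right of zero and below it.

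Genes around the pathway were counted by lists set by function. Beside these counts, the share of all genes called was 51.7% in GKO, 46.0% in DKO and 80.0% in primed ESCs, and the shares called lower were 27.1%, 24.3% and 42.5%. Among 12 tested lipogenic regulators, 8 were called in DKO, 6 of them lower, 3 in GKO and 10 in primed ESCs. Srebf1 and Srebf2, the transcription factors that drive lipogenic and sterol genes, were both called lower in DKO. Srebf1 stood at 38.2 and 37.6 TPM in the naïve libraries and 25.9 and 30.3 in DKO, a log2 change of -0.42 ± 0.13 (SE, limma adjusted p = 0.0248, up to 0.158 over the alternatives, lost without DKO library 1, naïve library 1 or naïve library 2). Srebf2 had 70.9 and 69.1 TPM in the naïve and 52.8 and 54.4 in the DKO libraries, a log2 change of -0.38 ± 0.04 (SE, limma adjusted p = 1.00e-04). Insig1, which retains their precursors in the endoplasmic reticulum, stood at 56.5 and 54.3 TPM in the naïve libraries, 32.2 and 33.7 in DKO and 0 and 0.0150 in primed ESCs. Mid1ip1, an activator of acetyl-CoA carboxylase, stood at 7.03 and 5.36 TPM in the naïve libraries, 1.71 and 2.22 in DKO and 27.5 and 22.7 in primed ESCs, a log2 change of -1.27 ± 0.15 (SE, limma adjusted p = 2.13e-04) and 1.86 ± 0.15 (SE, limma adjusted p = 2.95e-06). Of 10 genes that supply citrate and NADPH, 7 fell in GKO and 6 in DKO with 0 rises in either. With any one library left out there were still 7 falls in GKO, but 4 in DKO, and with chromosomes centred 6 fell and 1 rose in GKO and 4 fell and 1 rose in DKO. Me1, malic enzyme, stood at 39.03 and 39.2 TPM in the naïve libraries, 27.0 and 26.9 in GKO and 19.4 and 19.7 in DKO. Pcx, pyruvate carboxylase, which also lies on chromosome 19, stood at 30.5 and 32.7 TPM in the naïve libraries, 10.4 and 10.6 in GKO and 19.6 and 20.0 in DKO.

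Among 6 tested regulators of oxidation, 5 were called in GKO (2 higher, 3 lower) and 5 in DKO (1 higher, 4 lower). For this list and those below, the shares of all genes called higher were 24.7% in GKO, 21.7% in DKO and 37.4% in primed ESCs. The shares called lower were 27.1%, 24.3% and 42.5%. The 2 rises in GKO became 1 without any one library, and its 3 falls became 1 with chromosomes centred. Ppargc1b, a coactivator of mitochondrial genes, stood at 1.71 and 1.68 TPM in the naïve libraries, 0.693 and 0.885 in GKO, 0.817 and 0.844 in DKO and 0.401 and 0.507 in primed ESCs. It was lower in all 3, and DKO and GKO differed by 0.04 ± 0.08 (SE, limma adjusted p = 0.76). Of 10 peroxisomal oxidation genes, 3 rose and 2 fell in GKO, 3 rose and 1 fell in DKO, and 3 rose and 6 fell in primed ESCs. In GKO 1 rose without GKO library 1 or naïve library 2, and the 2 falls became 0 or 1 with any one library left out and 0 with chromosomes centred. Of 13 genes of triglyceride storage and lipolysis, 4 rose and 5 fell in DKO and 2 rose and 5 fell in GKO. Mgll, among the 4 rises in DKO, entered the test only through its DKO libraries. The 5 falls in DKO and the 5 falls in GKO were fewer with any one of the libraries compared left out. With chromosomes centred the falls in GKO became 0. Of 9 tested genes of uptake and binding, 4 rose in DKO, 1 in GKO and 5 in primed ESCs. Lpl, lipoprotein lipase, rose from 2.41 and 2.50 TPM in naïve ESCs to 9.78 and 9.01 in DKO and stood at 2.90 and 2.93 in GKO, and Fabp5, a fatty acid binding protein, rose to 288 and 226 TPM in primed ESCs from 5.63 and 6.28. Of 6 acyl-CoA thioesterases, which undo activation, 2 rose and 2 fell in GKO and in DKO, and 3 rose and 2 fell in primed ESCs. The falls in GKO were fewer without GKO library 2 or naïve library 1. Acot1, among the 3 rises in primed ESCs, would not have passed the filter without its primed libraries.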

How the data were processed

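RNA was sequenced from 10 libraries of mouse ESCs, 2 for each of 5 lines, as TruSeq Stranded mRNA libraries per the labels, while the study's methods name another kit for the naïve, GKO and primed lines. According to the submitters' processing notes and the study's methods, reads were trimmed with Trim Galore 0.6.6, aligned with STAR 2.7.9a and quantified with RSEM 1.3.3, and protein-coding genes were kept. The methods give another STAR release and name the GRCm39 build, which the notes do not. The authors deposited these values as TPM, with 1 column a library. RSEM divides reads among similar transcripts, so close paralogs (Acaa1a and Acaa1b, Acot1 and Acot2) are uncertain. TPM keeps no depth, which is unknown, and no counting interval or floor can be given.

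The 12060 of 21853 genes that reached 1 TPM in 2 or more libraries entered a limma test (version 3.58.1, R 4.3.3) on log2(TPM + 1), in one fit of all libraries with a mean per line and an intensity trend, and p-values were adjusted over all genes (Benjamini-Hochberg) with a threshold of 0.05. Code was tested on simulated data. With 2 libraries against 2, an exact permutation test cannot go below p = 0.333, so none was used. Every member may be named, a change is quoted where called, and 12 key members (Acly, Acaca, Acacb, Fasn, Scd1, Scd2, Fads2, Elovl6, Cpt1a, Cpt2, Acadm, Hadha) are quoted in each comparison with naïve ESCs. The rule for members uses gene function and no measured value, but the members and lists were chosen with earlier results of these data known. Alternatives were a pseudocount of 0.1, no filter or a mean of at least 5 TPM, median-ratio, quantile and chromosome-centred values (each of the chromosomes with at least 20 genes), no intensity trend, fewer lines in the fit, a replicate block, a log2 change of at least 1 and each library left out. Gene positions came from GENCODE vM39 on GRCm39, a later release than the authors', and promoters from RefSeq on GRCm38.p6, which matched 44 of 51 members.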

Additional observations from a re-analysis of the deposited data

Results flagged for a closer look

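The effect of Gys1 loss differed between AMPK-intact cells (GKO against naïve ESCs) and AMPK-deficient cells (DKO against AKO) for 21 of the 49 tested members, by limma's interaction term at an adjusted p under 0.05, where 25.8% of all genes tested passed. Each value below is the first log2 effect minus the second, with 2 libraries a line, and its cause was not tested. Prkaa1 mRNA was also lower in DKO than in AKO, at -1.35 ± 0.07 (SE, limma adjusted p = 3.39e-06), so the second effect is not one of Gys1 alone. In either effect, the Gys1 lesion and differences between clones cannot be told apart.

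On the oxidation side, 9 differences were negative. Slc25a20, the acylcarnitine carrier, had a difference of -0.76 ± 0.08 (SE, limma adjusted p = 3.02e-04) and Cpt1c one of -0.80 ± 0.09 (SE, limma adjusted p = 5.02e-04). Acadvl stood at -0.83 ± 0.10 (SE, limma adjusted p = 6.57e-04) and Etfb at -0.78 ± 0.10 (SE, limma adjusted p = 8.26e-04). The other 5 were Acadm at -0.53, Eci1 at -0.47, Acads at -0.53 ± 0.14 (SE, limma adjusted p = 0.0263, up to 0.108 over the alternatives, lost without AKO library 1, AKO library 2, DKO library 1, DKO library 2, GKO library 1, naïve library 1 or naïve library 2), Cpt1a at -0.38 ± 0.08 (SE, limma adjusted p = 0.0104, up to 0.0847 over the alternatives, lost without naïve library 1) and Acaa2 at -0.36 ± 0.11 (SE, limma adjusted p = 0.0468, up to 0.139 over the alternatives, lost without any 1 library compared), of which Acads, Cpt1a and Acaa2 no longer passed with each chromosome centred on its median (limma adjusted p of 0.0541, 0.0847 and 0.0773). Mlycd, malonyl-CoA decarboxylase, was the 1 positive difference of this side, at 0.76 ± 0.22 (SE, limma adjusted p = 0.0348, up to 0.13 over the alternatives, lost without AKO library 1, AKO library 2, DKO library 1, DKO library 2, GKO library 2, naïve library 1 or naïve library 2).

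On the synthesis side 3 differences were negative, Acss2 at -1.10 ± 0.13 (SE, limma adjusted p = 6.37e-04), Elovl1 at -0.71 and Elovl6 at -0.39, and 4 were positive, Scd2 at 0.65, Fads2 at 0.62, Fads1 at 0.39 and Elovl7 at 0.74. The activating enzymes Acsl1 at 0.43 ± 0.10 (SE, limma adjusted p = 0.015, up to 0.0613 over the alternatives, lost without AKO library 1, DKO library 2, GKO library 1, naïve library 1 or naïve library 2), Acsl3 at 0.60, Acsl4 at 0.80 and Acsl5 at 0.79 ± 0.19 (SE, limma adjusted p = 0.0149, up to 0.0692 over the alternatives, lost without AKO library 1, DKO library 2 or naïve library 1) were all positive.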

How the results depend on the processing

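With 2 libraries a line and a depth that TPM does not keep, small changes were the least secure. With one library left out, and the lone library assumed to vary like the other lines, the number of members called was 21 to 23 in GKO, 14 to 16 in DKO, 0 to 0 in AKO, 40 to 44 in primed ESCs, 12 to 18 in DKO against AKO, 23 to 25 in DKO against GKO and 15 to 19 for the interaction. The lowest counts were 14 in DKO without DKO library 2, naïve library 1 or naïve library 2, and 14 and 12 in DKO against AKO without AKO library 1 or 2 and without DKO library 2, where fewer libraries entered the fit. The number of all genes called was also lower with a library left out, in every comparison. Where a change of at least 1 on the log2 scale was also required, which few members reach, 1 member was called in GKO, 1 in DKO, 19 in primed ESCs, 2 in DKO against AKO, 0 in DKO against GKO (29 by adjusted p alone and 31 at an unadjusted p under 0.05) and 1 for the interaction. Of all 12060 genes, those called at this threshold numbered 433, 357, 3355, 375, 323 and 349 in the same order. Under the other alternatives the counts of members moved by less than 1.5 times.

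Of the single members' changes named, some turned sign. With each chromosome centred on its median, Acaca in GKO was at 0.000573, Scd2 at 0.0376, Fads2 at 0.161 and Cpt1a at 0.0908. In DKO Cpt1a was at 0.277, which passed, and Hadha at 0.0220. In AKO Acly was at 0.0215 and Cpt2 at 0.0163, and in primed ESCs Cpt1a was at 0.0689 and Acadvl at -0.0605. Median-ratio scaling put Cpt1a in DKO at 0.0128 and Acly in AKO at 0.00121. Quantile normalization put Cpt1a in DKO at 0.0141, Hadha in DKO at 0.00974 and Etfb in primed ESCs at 0.0212. With one library left out, Acaca in GKO ranged from -0.144 to 0.00579 (without naïve library 2) and Cpt1a in DKO from -0.0401 to 0.0307, positive without DKO library 2 or naïve library 1. In AKO these ranges were -0.0524 to 0.0365 for Acly, -0.00801 to 0.0729 for Elovl6, -0.116 to 0.0121 for Cpt1a and -0.0588 to 0.00606 for Cpt2, each turned without AKO library 2 and Cpt2 also without naïve library 1, and -0.0138 (without naïve library 2) to 0.0807 for Scd1. The centred values remove the chromosome's own shift by construction, and the cause of the others was not tested.

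The fit with a replicate block called 28 members in GKO, 22 in DKO, 0 in AKO, 44 in primed ESCs, 24 in DKO against AKO, 29 in DKO against GKO and 21 for the interaction. Deviations of same-numbered libraries correlated between -0.13 and 0.08 across pairs of lines. Whether libraries of the same number were handled together is not given, and they were not paired in the main fit. The calls of Cpt2 in DKO and Elovl6 in primed ESCs were lost under the block.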

Other observations

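Enzymes that free fatty acids from stores or from CoA, and so bear on the activating Acsl enzymes, differed between lines in some cases. Mgll, which releases the last fatty acid of a triglyceride, stood at 0.439 and 0.478 TPM in naïve ESCs, 0.617 and 0.384 in AKO, 0.576 and 0.549 in GKO, 2.72 and 2.62 in DKO and 0.0730 and 0.0580 in primed ESCs. Its log2 change was 1.33 in DKO and 0.10 in GKO. Mgll reached 1 TPM in its DKO libraries alone and entered the test through them, so its p-values are not quoted. The DKO libraries were above and the primed ones below all others. Acot1, a cytosolic acyl-CoA thioesterase with the close copy Acot2 between which reads could be split, stood at 0.292 and 0.174 TPM in naïve ESCs, 0.538 and 0.524 in AKO, 0.817 and 1.02 in GKO, 0.737 and 0.677 in DKO and 38.3 and 38.2 in primed ESCs. Its log2 change was 4.99 in primed ESCs. Without its primed libraries Acot1 would not have passed the filter, so its p-value is not quoted. Fabp5, which carries fatty acids in the cytosol, was at 11.6 and 14.3 TPM in DKO and 7.85 and 7.03 in AKO, a log2 change of 1.00 ± 0.14 (SE, limma adjusted p = 5.04e-04) from naïve ESCs. The effect of Gys1 loss on Lpl, lipoprotein lipase, was 0.18 in AMPK-intact and 1.47 in AMPK-deficient cells, a difference of -1.29 ± 0.22 (SE, limma adjusted p = 0.00369).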
